A study of Mus musculus with 20 samples.

Results

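The 10 genes described here make, display, activate or answer transforming growth factor beta (TGF-beta) in regulatory T cells, the CD4+ T cells that restrain immune responses. They were taken by symbol from the array annotation: Lrrc32, Itgb8, Itgav, Tgfb1, Furin, Tgfbr1, Tgfbr2, Smad3, Smad7 and Skil. Each had 1 probe set, and together they are 10 of the 19505 genes measured. Signals were read on 20 Clariom S mouse arrays, 1 per sample, in 8 groups of CD4+CD25+ cells from C57BL/6 mice. In the Rheb experiment, 3 arrays each held WT unstimulated, WT stimulated, Rheb1/2 KO unstimulated and Rheb1/2 KO stimulated cells. In the Rag experiment, 2 arrays each held WT unstimulated, WT stimulated, RagAB KO unstimulated and RagAB KO stimulated cells, and stimulation lasted 8 hours. Neither the stimulus, nor its length in the Rheb experiment, nor the age of the mice, nor the way the genes were deleted is stated in the labels. By its title the study asked what these cells need the small GTPases Rag and Rheb for, which carry amino acid and growth signals to the kinase complex mTORC1. The comparisons here set knockout against WT, and stimulated against unstimulated cells.

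TGF-beta1, the product of Tgfb1, is made as a precursor that the protease furin cuts and that stays inactive inside its own latency peptide. Regulatory T cells hold this latent complex on their surface through GARP, the product of Lrrc32, and the integrin of the alpha-v chain (Itgav) and the beta-8 chain (Itgb8) releases the active cytokine from it. Active TGF-beta binds the type II receptor (Tgfbr2), which switches on the type I receptor kinase (Tgfbr1), and that phosphorylates Smad3. Smad7 blocks the receptor, and SnoN, the product of Skil, holds Smad complexes in check on DNA. The cytokine is needed for regulatory T cells to arise and persist, and these cells in turn activate it to suppress others.

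The promoters of 3 genes that changed on stimulation are shown because they let the reader see what a rising gene (Itgb8) and a pair of falling genes (Tgfbr2, Smad3) carry upstream. RefSeq promoter entries on GRCm38.p6 matched 7 of the 10 genes, in 9 windows. Lrrc32, Skil and Smad7, which also changed on stimulation in at least 1 genotype, had no entry. Each sequence is the 250 bases before the annotated start, 5′ to 3′ on the gene's own strand, at chr12:119238277-119238526 (minus strand) for Itgb8, chr9:116175364-116175613 (minus strand) for Tgfbr2 and chr9:63757995-63758244 (minus strand) for Smad3. Capitals mark matches on either strand to CAGAC (the Smad-binding element), TGANTCA (AP-1), TGACGTCA (the cAMP response element) or GGGCGG (the Sp1 GC box), and no base lay in more than 1 match.
Itgb8: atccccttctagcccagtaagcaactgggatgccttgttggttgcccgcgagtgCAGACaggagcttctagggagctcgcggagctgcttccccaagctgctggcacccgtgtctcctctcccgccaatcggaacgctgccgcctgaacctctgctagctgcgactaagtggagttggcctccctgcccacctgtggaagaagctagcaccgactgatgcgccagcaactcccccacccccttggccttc
Tgfbr2: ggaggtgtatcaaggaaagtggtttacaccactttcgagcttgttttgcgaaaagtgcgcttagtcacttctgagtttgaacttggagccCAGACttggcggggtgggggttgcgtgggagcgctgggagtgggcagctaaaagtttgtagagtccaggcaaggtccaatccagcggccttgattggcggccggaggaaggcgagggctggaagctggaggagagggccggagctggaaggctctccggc
Smad3: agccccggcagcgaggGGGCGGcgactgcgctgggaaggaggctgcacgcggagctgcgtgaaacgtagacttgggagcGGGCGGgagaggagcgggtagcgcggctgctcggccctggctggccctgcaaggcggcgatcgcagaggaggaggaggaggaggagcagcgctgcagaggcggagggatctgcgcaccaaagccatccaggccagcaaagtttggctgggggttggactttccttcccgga
Itgb8 and Tgfbr2 each held 1 CAGAC, at position -196 and position -160 from the start, and Smad3 held 2 GGGCGG, at position -234 and position -171. CAGAC is present in 42.2% of all 32851 windows of this length and GGGCGG in 32.7%, against 6.75% for TGANTCA and 1.55% for TGACGTCA, which none of these 3 windows held. The GC content was 62.4% for Itgb8, 58.4% for Tgfbr2 and 69.2% for Smad3, beside a median of 52.4% over all windows. These matches describe letters only, and binding was not measured.

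All values below are log2 signals after robust multi-array averaging (RMA), so a difference of 1 is a doubling. Array medians ran from 7.67 to 7.77 in the Rheb experiment and from 7.18 to 7.55 in the Rag experiment, where RagAB KO unstimulated array 1 (7.29) and WT unstimulated array 2 (7.18) were lowest. Each array carries negative-control probe sets. The 95th percentile of these controls was 9.95 to 10.21 on the 12 arrays of the Rheb experiment, and for the 8 Rag arrays it was 9.43 to 9.92. All 10 genes were above the control median on 20 of 20 arrays. Itgav and Tgfb1 exceeded the 95th percentile of controls on 20 arrays, Lrrc32 on 19, Skil on 15, Tgfbr1 on 14, Smad3 on 11, Furin on 7, Itgb8 on 5, Tgfbr2 on 4 and Smad7 on 0, so for the last of these the measured changes are nearest the background. Of 8 regulatory T cell markers measured, Ctla4, Ikzf2, Tnfrsf18, Cd4 and Cd3e were above that percentile on every array, whereas Il2ra (CD25) was below it on every array, with group means from 7.05 to 9.17. Foxp3 and Nrp1 had no named probe set and were not analysed here. The deleted genes' own probe sets fell where the labels place the knockouts for Rheb (-0.88 unstimulated, limma adjusted p = 0.0413) and Rraga (-2.43 unstimulated, limma adjusted p = 0.00266), and those of Rhebl1 and Rragb were not called. Rheb also read lower in unstimulated RagAB KO than in its WT, at -0.75 (SE 0.29), without a call (limma adjusted p = 0.681). In unstimulated cells of the Rheb experiment, Rheb exceeded the controls' 95th percentile on 1 of 3 WT and 0 of 3 knockout arrays.

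The groups follow the sample titles, the source names and the series design. The treatment field disagrees with them on 6 arrays, calling the 3 Rheb1/2 KO unstimulated arrays stimulated and the 3 WT stimulated arrays of the Rheb experiment unstimulated. By that field no comparison of states within a genotype would exist in that experiment, so every result below from those 6 arrays rests on the titles. Nothing in the labels ties the arrays of a group to different mice, so the tests take in only the spread among these samples, which may be technical, and the number of arrays limits the precision. Within an experiment the knockout comparisons and the stimulation comparisons share arrays, and the values are therefore given side by side.

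**Figure D1:**
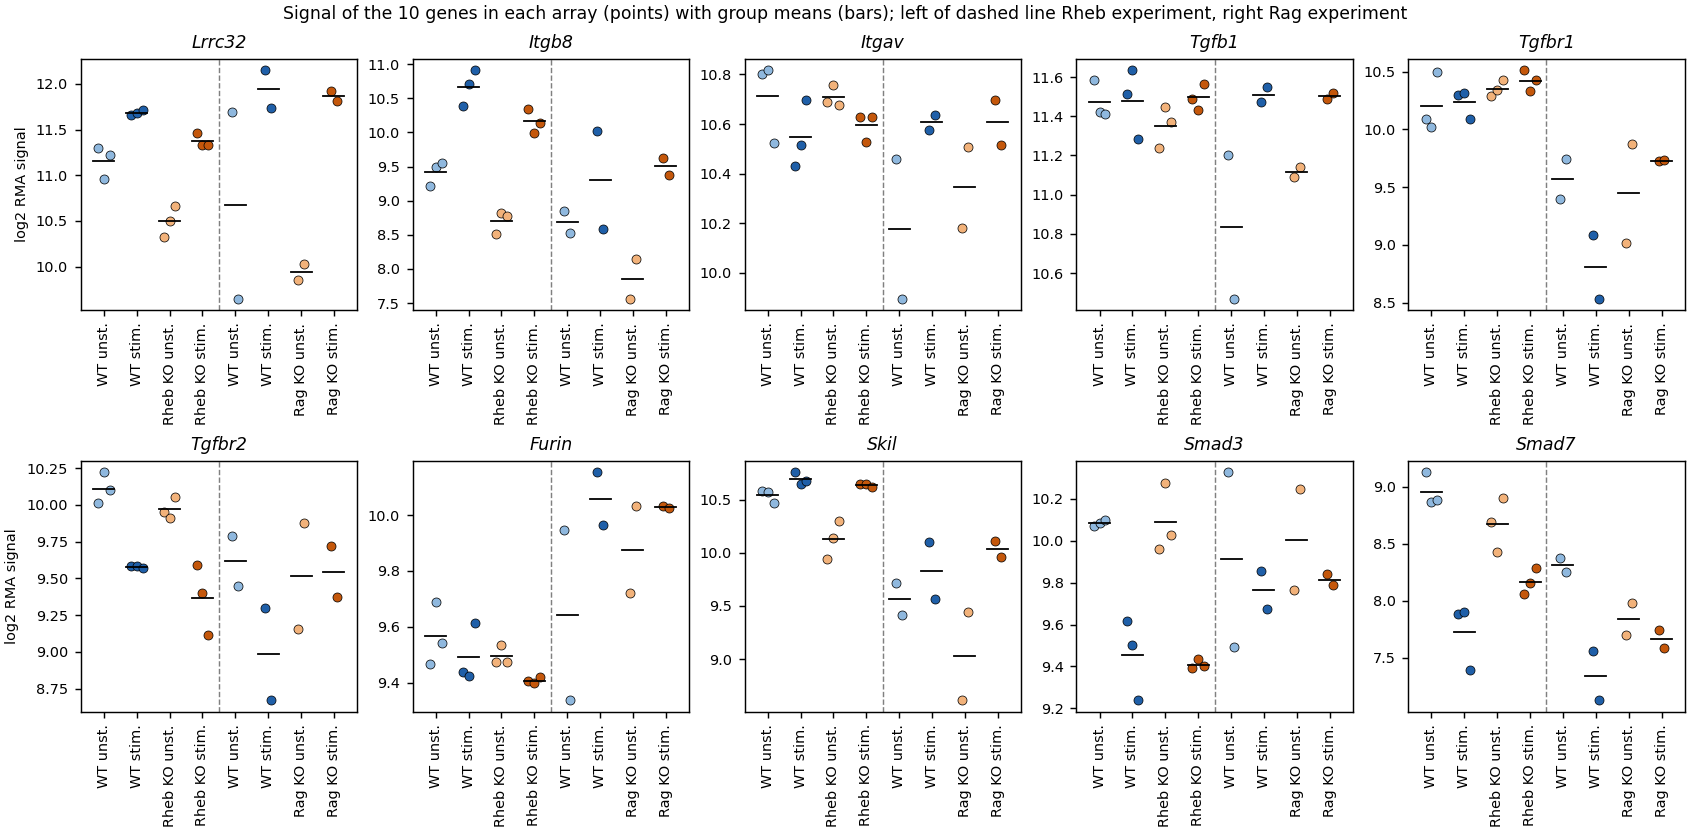
Log2 RMA signal (vertical axes, one scale per gene) of the 10 genes on each of the 20 arrays (points), with group means (bars), for the Rheb experiment (left of the dashed line) and the Rag experiment (right). In the Rheb experiment the stimulated arrays of Itgb8 and Lrrc32 sit above the unstimulated arrays of the same genotype, and those of Smad3, Smad7 and Tgfbr2 sit below; both unstimulated Rag groups spread widely for several genes.

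In unstimulated cells without Rheb1/2, Lrrc32, which anchors latent TGF-beta, fell, and 9 of the 10 genes were not called. The 1 gene called at a limma adjusted p below 0.05 compares with 0.508% of all genes called in this comparison. Lrrc32 read 11.30, 10.96 and 11.22 in WT and 10.32, 10.50 and 10.67 in Rheb1/2 KO. All 3 knockout arrays were below all 3 WT arrays. The change was -0.66 ± 0.11 (SE, 3 arrays per group; limma, Benjamini-Hochberg adjusted p = 0.0257), or 1.58-fold lower. The call is not firm: without WT unstimulated array 1 or 3, or without Rheb1/2 KO unstimulated array 1 or 2, the change was -0.59, -0.63, -0.58 or -0.67 and the adjusted p was 0.0995, 0.0935, 0.0976 or 0.0908. It also ended when only the groups compared were fitted (adjusted p = 0.141) or all 20 arrays were (adjusted p = 0.877).

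Itgb8, the beta-8 integrin chain, read 9.22, 9.49 and 9.55 in WT and 8.51, 8.82 and 8.77 in Rheb1/2 KO without stimulation. Every one of these signals was below the controls' 95th percentile. The groups did not overlap, and the difference of -0.72 ± 0.15 missed the threshold (adjusted p = 0.0564). Centring each array on its median, dropping the dimmest 40% of genes or letting the prior follow signal gave adjusted p values of 0.042, 0.0402 and 0.017, and leaving out WT stimulated array 1 or 3, which share the estimate of spread, gave 0.0432 and 0.0439. Skil, which encodes the Smad co-repressor SnoN, read 10.58, 10.57 and 10.47 in WT against 9.94, 10.14 and 10.30, also without overlap. The difference was -0.41 ± 0.10 (adjusted p = 0.112, or 0.0265 with the prior that follows signal). By unadjusted p, 3 genes (Lrrc32, Itgb8 and Skil) lay below 0.05, as did 10.2% of all genes. Non-overlap to the low side was thus seen for 3 genes of 10, beside 7.08% of all genes, and to the high side for 0, beside 7.62%.

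For the other 7 genes the arrays of unstimulated Rheb1/2 KO and WT cells overlapped. Smad7, the receptor inhibitor, was -0.28 ± 0.15 and overlapped (adjusted p = 0.579). The ligand Tgfb1 (-0.12, 95% confidence interval -0.35 to 0.12), the integrin chain Itgav (-0.01, -0.23 to 0.22), the protease gene Furin (-0.07, -0.27 to 0.13), Tgfbr1 (0.15, -0.12 to 0.42), Tgfbr2 (-0.14, -0.39 to 0.11) and Smad3 (0.00, -0.24 to 0.25) gave the intervals shown. The median over the 10 genes was -0.13, beside 0.02 over all genes.

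Markers of other cells moved in this comparison too. All 10 macrophage markers measured lay above 0, with a median change of 0.41, and C1qa (1.14, adjusted p = 0.0228) was among the 2 called. Their summed signal ran from 73.2 to 74.0 in WT and from 77.5 to 78.5 in Rheb1/2 KO, though 0 of the 10 exceeded the controls' 95th percentile on any array. Of 11 dendritic cell markers 10 lay above 0 and 2 were called, H2-Eb1 (0.83) and H2-Ab1 (0.73), and their sum ran from 82.5 to 84.6 in WT and from 86.1 to 87.8 in the knockout. Lrrc32 is also a platelet gene, and 0 of 6 platelet markers were called, with sums of 45.7 to 47.4 and 46.3 to 46.9. Of the 6 markers of conventional CD4 cells, Dapl1 was called lower (-0.94, adjusted p = 0.00693), and 3 lay above 0. In bulk samples fewer cells of a type and less RNA per cell cannot be told apart, and the part of these cells in the lower Lrrc32 was not tested.

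After stimulation, 0 of the 10 genes were called between Rheb1/2 KO and WT, in a comparison where 0.543% of all genes were, and 3 had an unadjusted p below 0.05, beside 9.25% of all genes. Itgb8 read 10.39, 10.70 and 10.91 in WT and 10.35, 9.997 and 10.13 in the knockout, a difference of -0.51 ± 0.15 (adjusted p = 0.233). Lrrc32 read 11.66, 11.68 and 11.71 against 11.46, 11.33 and 11.33, a difference of -0.31 ± 0.11 (adjusted p = 0.381). For both genes the highest knockout array was below the lowest WT array. Smad7 ran the other way, with 7.89, 7.90 and 7.40 in WT and 8.06, 8.15 and 8.29 in Rheb1/2 KO, a difference of 0.44 ± 0.15 (adjusted p = 0.35). Every knockout array was above every WT array. In all, 3 genes did not overlap to the low side (Lrrc32, Itgb8 and Furin), beside 8.8% of all genes, and 2 to the high side (Tgfbr1 and Smad7), beside 6.75%. Skil, at -0.05 (95% confidence interval -0.27 to 0.16), did not pass. Of markers of other cells, 10 of 11 for dendritic cells lay above 0, and H2-Eb1 was called higher (0.78, limma adjusted p = 0.0233). Also above 0 were 7 of 7 NK cell markers (median 0.20), 4 of 10 macrophage and 2 of 6 platelet markers, with 0 called. The part of these cells in the values of the 10 genes was not tested.

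**Figure D2:**
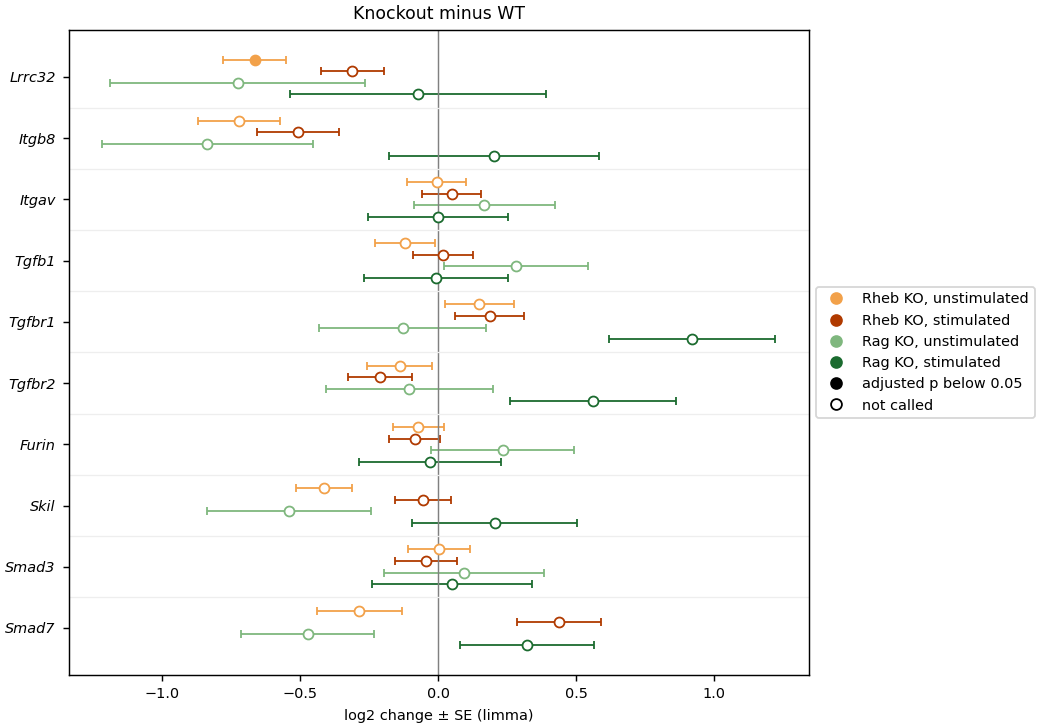
Log2 change between knockout and WT with its limma standard error (horizontal axis) for each gene, in 4 comparisons; filled points have an adjusted p below 0.05. Lrrc32 in unstimulated Rheb1/2 KO cells, at -0.66, is the 1 filled point, and the bars of the Rag experiment are wider.

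Stimulation changed 5 of the 10 genes in WT cells of the Rheb experiment and 5 in Rheb1/2 KO cells, where 9.37% and 9.75% of all genes were called. In WT cells 2 rose, Itgb8 and Lrrc32, beside 4.49% of all genes, and 3 fell, Smad7, Smad3 and Tgfbr2, beside 4.89%. In Rheb1/2 KO cells 3 rose, Itgb8, Lrrc32 and Skil, beside 4.55%, and 2 fell, Smad3 and Tgfbr2, beside 5.19%. An unadjusted p below 0.05 was found for 5 and 6 of the 10 genes, beside 21.1% of all genes in either genotype. In WT, 3 genes did not overlap to the high side (12.9% of all genes) and 3 to the low side (11.5%), and in Rheb1/2 KO the counts were 3 (13.5%) and 5 (14.4%). The genes that rose hold and release latent TGF-beta or, for Skil, restrain Smads, and those that fell belong to the receptor, its Smad or the receptor's inhibitor. That split does not extend to whole functions. Itgav, Tgfb1, Furin and Tgfbr1 were not called in either genotype. Of 18 further genes of latent TGF-beta, 0 were called higher and 2 lower in each genotype, and the receptor gene Bmpr2 and the inhibitor gene Pmepa1 rose.

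Among the genes of latent TGF-beta, Itgb8 changed most. Its signal was below the controls' 95th percentile on every unstimulated array of the Rheb experiment and on stimulated Rheb1/2 KO arrays 2 and 3. The sizes of its changes therefore rest partly on signals within the background range. The unstimulated and stimulated arrays printed above were separated by more than the spread within either group in both genotypes. It rose by 1.25 ± 0.15 in WT (2.38-fold; limma adjusted p = 0.000161) and by 1.46 ± 0.15 in Rheb1/2 KO (2.75-fold; limma adjusted p = 3.58e-05). Lrrc32 rose by 0.52 ± 0.11 in WT (adjusted p = 0.0103) and by 0.88 ± 0.11 in the knockout (adjusted p = 0.000253), where it started lower, and no array of one state reached those of the other. The partner chain Itgav did not pass, at -0.17 (95% confidence interval -0.39 to 0.06) in WT and -0.11 (-0.34 to 0.12) in the knockout. Tgfb1 lay between 11.24 and 11.63 on all 12 arrays, and its changes were 0.01 (-0.23 to 0.24) and 0.14 (-0.09 to 0.38). Furin lay between 9.40 and 9.69, with changes of -0.07 and -0.09 that did not pass.

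Of the receptors, Tgfbr2 read 10.01, 10.22 and 10.10 in unstimulated WT cells and 9.59, 9.59 and 9.57 after stimulation. In Rheb1/2 KO cells it read 9.95, 9.91 and 10.05 and then 9.59, 9.40 and 9.12. Every stimulated array was below every unstimulated one. It fell by 0.53 on the log2 scale in WT (SE 0.12, adjusted p = 0.0108) and by 0.60 in the knockout (SE 0.12, adjusted p = 0.00425). Tgfbr1, its partner kinase, stayed between 10.02 and 10.51 on all 12 arrays, with changes of 0.03 (95% confidence interval -0.24 to 0.30) and 0.07 (-0.20 to 0.34).

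Smad3, which the receptor phosphorylates, read 10.07, 10.09 and 10.10 in unstimulated WT cells and 9.62, 9.50 and 9.24 after stimulation. In Rheb1/2 KO cells it read 9.96, 10.28 and 10.03 and then 9.39, 9.43 and 9.40. The states did not overlap in either genotype, and Smad3 fell by 0.63 in WT (SE 0.11, adjusted p = 0.00277) and by 0.68 in the knockout (SE 0.11, adjusted p = 0.00154). The knockout and WT means differed by 0.00 without stimulation and by -0.04 with it.

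Smad7, the inhibitor, read 9.13, 8.86 and 8.88 in unstimulated WT cells and dropped to 7.89, 7.90 and 7.40. In Rheb1/2 KO cells it read 8.69, 8.43 and 8.90 and then 8.06, 8.15 and 8.29. The states were apart in both genotypes. The change was -1.23 ± 0.15 in WT (2.35-fold lower, adjusted p = 0.000228) and -0.51 ± 0.15 in the knockout, which missed the threshold (adjusted p = 0.0546). Without the dimmest 40% of genes, with the prior that follows signal, or with only these groups in the fit, the knockout value passed at adjusted p values of 0.0357, 0.0409 and 0.0414. It also passed without Rheb1/2 KO unstimulated array 2 (-0.63, adjusted p = 0.0335) or WT stimulated array 3 (adjusted p = 0.0221).

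Skil read 10.76, 10.65 and 10.68 in stimulated WT cells and 10.65, 10.65 and 10.62 in stimulated Rheb1/2 KO cells. These 6 arrays lay above the unstimulated arrays of their genotype. The rise was 0.51 ± 0.10 in Rheb1/2 KO (adjusted p = 0.00455), from its lower start, and the WT difference of 0.15 ± 0.10 did not pass (adjusted p = 0.437).

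No gene passed when the response to stimulation was compared between genotypes, 0% of all genes being called there. By limma's test of that difference, Smad7 gave 0.72 ± 0.22 (95% confidence interval 0.25 to 1.19, adjusted p = 0.68), Skil 0.36 ± 0.14 (adjusted p = 0.749) and Lrrc32 0.35 ± 0.16 (adjusted p = 0.804). These 3 had an unadjusted p below 0.05, as did 6.19% of all genes. For Itgb8 the difference was 0.21 (-0.24 to 0.67), and for Smad3 and Tgfbr2 it was -0.05 (-0.39 to 0.30) and -0.07 (-0.43 to 0.28). The calls in one genotype only, for Skil and Smad7, are therefore not shown to differ.

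Other cells' markers moved with stimulation as well. Of the 10 macrophage markers 7 were called lower in each genotype, with medians of -0.54 in WT and -0.88 in Rheb1/2 KO, and their sums after stimulation were 66.9 to 69.3 and 67.3 to 67.7. Of 6 markers of conventional CD4 cells 3 were called lower in each genotype. Their summed signal went from 59.5 to 60.1 down to 55.4 to 56.3 in WT, and from 58.9 to 59.7 down to 56.7 to 57.0 in Rheb1/2 KO. Of 7 NK cell markers 3 were called lower in WT (list median -0.52) and 1 in Rheb1/2 KO (-0.44), with 0 higher. The part of these cells in the lower Smad3, Smad7 and Tgfbr2 was not tested. Dendritic cells can also carry Itgb8, and 4 of 11 of their markers were called lower and 0 higher in each genotype. Of 6 platelet markers 0 were called. The part of these cells in the higher Itgb8 and Lrrc32 was not tested.

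**Figure D3:**
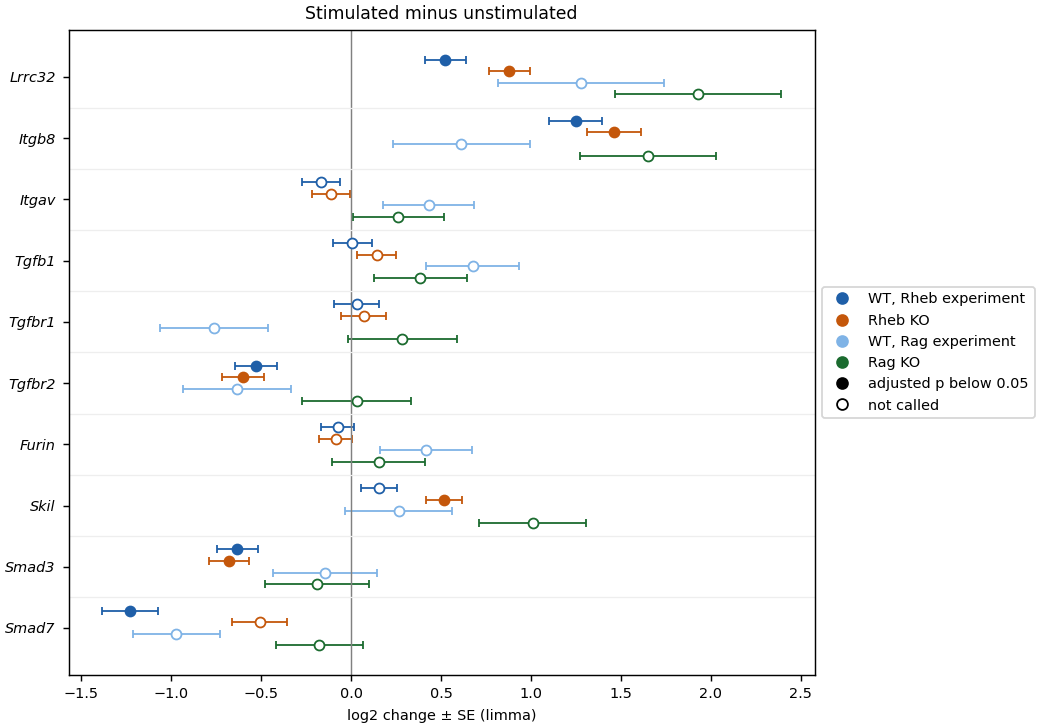
Log2 change between stimulated and unstimulated cells with its limma standard error (horizontal axis) for each gene in WT and knockout cells of both experiments; filled points have an adjusted p below 0.05. Itgb8 and Lrrc32 lie right of 0 in all 4 comparisons and Smad7 lies left of 0 in all 4, with calls in the Rheb experiment alone.

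In the Rag experiment, with 2 arrays per group, 0 of the 10 genes were called in any comparison. The share of all genes called was 0.113% for the knockout without stimulation, 0.103% for the knockout with it, 1% for stimulation in WT, 1.32% for stimulation in RagAB KO and 0% for the difference in response. Unadjusted p values below 0.05 were found for 1, 1, 4, 3 and 2 of the 10 genes in these comparisons, in that order, beside 6.66%, 5.07%, 15%, 14.4% and 6.16% of all genes. The typical standard error of a gene was 0.26 here and 0.13 in the Rheb experiment.

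Without stimulation, Itgb8 read 8.85 and 8.53 in WT and 7.57 and 8.15 in RagAB KO, a difference of -0.83 ± 0.38 (limma adjusted p = 0.742). Smad7 read 8.37 and 8.26 in WT and 7.70 and 7.98 in RagAB KO, a difference of -0.47 ± 0.24. These 2 genes did not overlap to the low side, beside 12.5% of all genes, and 0 did to the high side, beside 15.9%. Skil read 9.72 and 9.41 against 8.61 and 9.44, which overlapped, at -0.54 ± 0.30. Leaving out 1 array moved these differences, from -0.55 without RagAB KO unstimulated array 1 to -1.12 without array 2 for Itgb8, and from -0.13 to -0.95 without the same arrays for Skil. Of the markers of other cells, 9 of 10 for macrophages, 10 of 11 for dendritic cells, 6 of 7 for NK cells (median 0.61) and 5 of 6 for platelets lay above 0 in this comparison, with 0 called. The dendritic sum ran from 72.65 to 77.02 in WT and from 80.06 to 81.56 in RagAB KO. The conventional CD4 marker Dapl1 was called lower (-1.40, adjusted p = 0.0305). The part of these cells in the values of the 10 genes was not tested.

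Lrrc32 turned on the 2 WT unstimulated arrays. It read 11.69 and 9.65 in unstimulated WT cells and 9.86 and 10.03 in RagAB KO cells. The WT arrays lay on either side of the knockout pair, and the difference of -0.72 ± 0.46 did not pass (adjusted p = 0.826). Without WT unstimulated array 1 it was 0.30, and without array 2 it was -1.74. Without the 2 arrays of lowest median, which leaves 1 array in each unstimulated group and takes the spread from the stimulated groups, it was -1.66 ± 0.30 (adjusted p = 0.0404).

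Between stimulated RagAB KO and WT cells, the differences farthest from 0 were those of the receptors, and they did not pass. Tgfbr1 read 9.09 and 8.54 in WT and 9.73 and 9.73 in RagAB KO, a difference of 0.92 ± 0.30 (adjusted p = 0.59). With only the stimulated groups its adjusted p was 0.0442, and leaving out the 2 arrays of lowest median amounts to the same fit here. Tgfbr2 read 9.30 and 8.67 against 9.72 and 9.37, a difference of 0.56 ± 0.30 (adjusted p = 0.947) that was 0.87 without WT stimulated array 1 and 0.25 without array 2. Both receptors and Smad7 (0.32 ± 0.24) did not overlap to the high side, 3 genes in all beside 18.1% of all genes, and 0 did to the low side, beside 26.2%. Lrrc32 (-0.07), Itgb8 (0.20), Itgav (0.00), Tgfb1 (-0.01), Furin (-0.03), Skil (0.20) and Smad3 (0.05) all overlapped. Of the markers of other cells, 7 of 7 for NK cells (median 0.54) and 0 of 6 for platelets (median -0.26) lay above 0. So did 5 of 11 dendritic and 5 of 10 macrophage markers, and 0 of all these were called. The part of these cells in the values of the 10 genes was not tested.

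Markers of other cells moved with stimulation in this experiment too. In WT, 6 of 6 platelet markers (median 0.38) and 11 of 11 dendritic markers (median 0.25) lay above 0 on stimulation, beside a median of 0.21 over all genes, with 0 called. In RagAB KO, 1 of 6 platelet and 5 of 11 dendritic markers lay above 0, also with 0 called. Of 6 conventional CD4 markers, Dapl1 was called lower in WT (-1.36, adjusted p = 0.0106) and 0 were called in RagAB KO. The part of these cells in the values that follow was not tested.

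With 8 hours of stimulation, Lrrc32 read 12.15 and 11.74 in WT and 11.93 and 11.82 in RagAB KO. The change from the unstimulated arrays was 1.28 ± 0.46 in WT (adjusted p = 0.236) and 1.93 ± 0.46 in RagAB KO (adjusted p = 0.0626). Itgb8 read 10.02 and 8.58 in stimulated WT and 9.63 and 9.38 in stimulated RagAB KO, with changes of 0.61 ± 0.38 (adjusted p = 0.427) and 1.65 ± 0.38 (adjusted p = 0.0545). In WT the lower stimulated array of Itgb8 fell inside the unstimulated range, and without the higher one the change was -0.11. Without the 2 arrays of lowest median, Lrrc32 changed by 0.26 in WT and by 1.84 in RagAB KO (adjusted p = 0.000623), and Itgb8 by 0.45 and 1.36. In RagAB KO, Lrrc32 passed the threshold in 7 of 8 other settings and in 3 of 8 fits without 1 array, and Itgb8 in 5 of 8 and 3 of 8. Lrrc32 in WT passed without WT unstimulated array 1 (2.30, adjusted p = 0.0206). The calls of Lrrc32 in RagAB KO came without WT unstimulated array 1 or 2 (adjusted p = 0.00717 each) or RagAB KO unstimulated array 2 (0.0147), and those of Itgb8 without that array (0.00586) or WT stimulated array 1 or 2 (0.0147 each).

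Smad7 read 7.56 and 7.13 in stimulated WT cells, below both unstimulated arrays, and changed by -0.97 ± 0.24 (limma adjusted p = 0.0867). It passed after median centring (-1.15, adjusted p = 0.0158) and without the 2 arrays of lowest median (-1.03, adjusted p = 0.0388), in 6 of 8 other settings in all, and without RagAB KO unstimulated array 1 or 2 (adjusted p = 0.0365 each). In RagAB KO it read 7.74 and 7.59, and its change was -0.18 ± 0.24. Skil read 10.10 and 9.57 in stimulated WT and 10.11 and 9.96 in stimulated RagAB KO, with changes of 0.27 ± 0.30 and 1.01 ± 0.30 (adjusted p = 0.118, or 0.00751 without RagAB KO unstimulated array 2, where the change was 1.42). In WT, Tgfbr1 changed by -0.76 ± 0.30 and Tgfbr2 by -0.63 ± 0.30, and in RagAB KO by 0.28 and 0.03. Smad3 read 10.33 and 9.49 in unstimulated WT and 9.86 and 9.67 after stimulation, and changed by -0.15 ± 0.29 there and by -0.19 ± 0.29 in RagAB KO.

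The median of all genes itself moved with stimulation in this experiment, by 0.21 in WT and by 0.09 in RagAB KO. In WT 4 genes did not overlap to the high side, beside 37.3% of all genes, and 3 to the low side, beside 10.1%. In RagAB KO 5 did to the high side, beside 31.9%, and 0 to the low side, beside 13.8%. Tgfb1 read 11.20 and 10.47 in unstimulated WT and 11.47 and 11.55 after stimulation, a change of 0.67 ± 0.26 (adjusted p = 0.266). On WT unstimulated array 2, which has the lowest median, Tgfb1, Itgav (9.90) and Furin (9.34) each had their lowest signal of the experiment. Without the 2 arrays of lowest median the change of Tgfb1 in WT was 0.31, that of Itgav 0.15 and that of Furin 0.11, against 0.67, 0.43 and 0.42 with them. In RagAB KO, Itgav (0.26) and Tgfb1 (0.39) changed sign after a second quantile normalization, to -0.14 and -0.08.

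**Figure D4:**
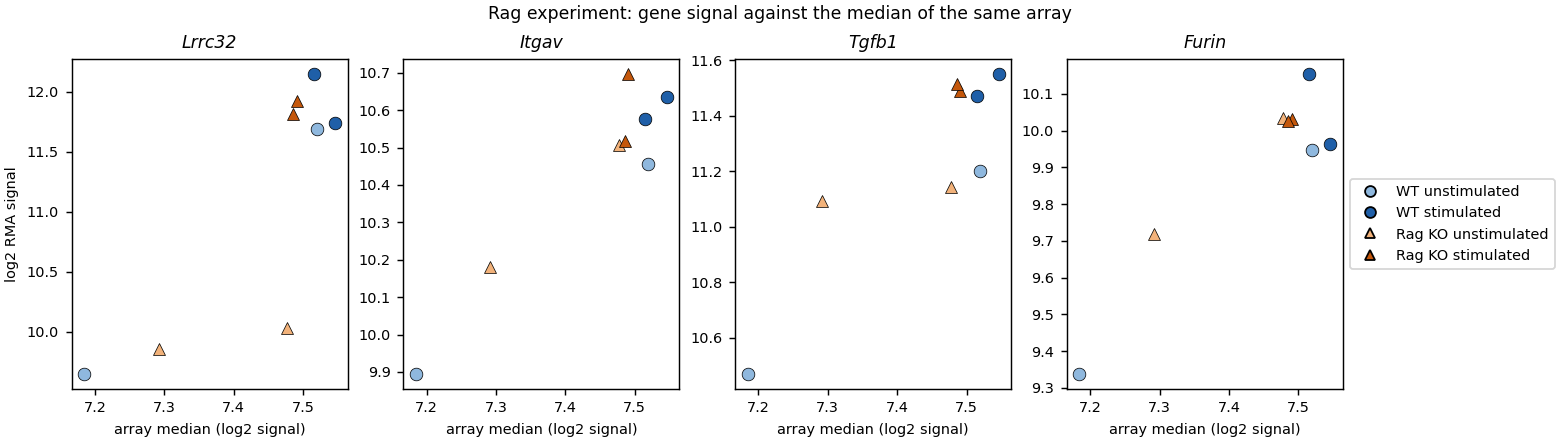
Log2 RMA signal of Lrrc32, Itgav, Tgfb1 and Furin (vertical axes) against the median signal of the same array (horizontal axes) for the 8 arrays of the Rag experiment; circles are WT, triangles RagAB KO, and darker colours stimulated. The array with the lowest median, 7.18, also has the lowest signal of all 4 genes.

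By the test of the difference in response, Tgfbr1 (1.05 ± 0.43, 95% confidence interval 0.13 to 1.97) and Smad7 (0.79 ± 0.34, 0.06 to 1.53) had an unadjusted p below 0.05, and no gene passed, with an adjusted p of 0.728 for both. Itgb8 gave 1.04 ± 0.54 and Skil 0.74 ± 0.42.

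The Rag and Rheb knockout effects were also set against each other, each relative to its own WT arrays. Among the 10 genes, 0 were called in either state, where 0.0564% of all genes were without stimulation and 0.19% with it. Without stimulation the difference for Lrrc32 was -0.06 (SE 0.46), and it rests on the WT unstimulated arrays of the Rag experiment: it was 0.96 without array 1, -1.08 without array 2 and -0.99 without the 2 arrays of lowest median. The difference was -0.12 (SE 0.39) for Itgb8 and -0.13 (SE 0.28) for Skil. These errors leave room for differences as large as the effects themselves. With stimulation it was 0.77 ± 0.29 for Tgfbr2 (adjusted p = 0.577, and 1.09 or 0.46 without Rag WT stimulated array 1 or 2) and 0.73 ± 0.30 for Tgfbr1 (adjusted p = 0.619), the 2 genes with an unadjusted p below 0.05, beside 7.06% of all genes; without stimulation 0 of the 10 and 7.31% of all genes had one. For Itgb8 it was 0.71 ± 0.39, and that value rests on the WT stimulated arrays of the Rag experiment: it was 1.43 without array 1 (adjusted p = 0.0371) and -0.01 without array 2.

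The wider pathway was followed through 58 measured genes in 4 lists: 18 of latent TGF-beta and its activation, 9 receptors, 21 Smads and their regulators, and 10 targets of TGF-beta. The share of all genes called in the knockout comparisons was 0.508% (unstimulated) and 0.543% (stimulated) for Rheb1/2 and 0.113% and 0.103% for RagAB. In unstimulated Rheb1/2 KO cells 1 of 58 was called, Itgb1, the beta-1 integrin chain (-0.57 ± 0.11, adjusted p = 0.0397), and that call held in 2 of 12 fits that left out 1 array. In stimulated Rheb1/2 KO cells 1 was called, Ldlrad4, an inhibitor of Smad phosphorylation (-0.71 ± 0.12, adjusted p = 0.0211), and it was lost without any 1 of the 6 stimulated arrays. Ltbp1, a latent TGF-beta binding protein, was the 1 called in unstimulated RagAB KO cells, at 1.44 ± 0.23 (adjusted p = 0.0333). Its group means were 5.85 and 7.28, both far below the controls' 95th percentile, and the call held in 1 of 8 fits that left out 1 array. In stimulated RagAB KO cells 0 of 58 were called.

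Stimulation called 11 of the 58 in WT and 11 in Rheb1/2 KO cells of the Rheb experiment, beside 9.37% and 9.75% of all genes. Among the latent TGF-beta genes, 2 of 18 fell in each: Nrros, which like GARP tethers latent TGF-beta (-0.53 in WT and -0.78 in Rheb1/2 KO), with Itgb1 (-0.49) in WT and the metalloprotease gene Mmp9 (-1.13) in Rheb1/2 KO. Nrros and Mmp9 are also expressed by macrophages, whose markers fell too, and neither exceeded the controls' 95th percentile on any array of the Rheb experiment. Of 9 receptors the BMP receptor gene Bmpr2 rose in both (0.47 and 0.58), and the co-receptor gene Tgfbr3 fell in Rheb1/2 KO (-0.67). Tgfbr3 likewise stayed below that percentile on every array of the experiment. The call of Nrros in WT was lost without WT unstimulated array 1 or WT stimulated array 1 or 2, and that of Tgfbr3 without Rheb1/2 KO unstimulated array 3 or stimulated array 1 or 2. The list medians were -0.03 and -0.08 for latent TGF-beta genes and -0.08 and -0.12 for receptors, beside 0.02 and -0.01 for all genes.

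Of the 21 Smads and regulators, the co-repressor gene Tgif2 fell (-0.70 and -0.60) and Pmepa1, a feedback inhibitor, rose (0.49 and 0.68) in both genotypes, and the ubiquitin ligase gene Smurf2 fell in WT (-0.53), a call lost without WT unstimulated array 1 or WT stimulated array 2. The list medians were 0.01 and -0.03. Of the 10 targets, 2 rose and 3 fell in WT, and 1 rose and 4 fell in Rheb1/2 KO. Id3, an inhibitor of E proteins, fell from 9.45 ± 0.12 to 7.25 ± 0.70 in WT (SD, n = 3; change -2.19 ± 0.25) and changed by -2.04 in Rheb1/2 KO. Cdkn1a, which encodes the cell cycle inhibitor p21, rose by 1.60 and 1.36.

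Itgae, the integrin chain CD103 and a TGF-beta target, fell by 2.09 in WT (SE 0.19, adjusted p = 2.32e-05) and by 0.80 in Rheb1/2 KO (SE 0.19, adjusted p = 0.0158). The means went from 9.48 to 7.38 in WT and from 9.04 to 8.24 in the knockout. The difference in response was 1.30 ± 0.27 and did not pass (adjusted p = 0.304). The call in Rheb1/2 KO was lost without unstimulated array 2 or 3 or stimulated array 3. Runx1, a transcription factor, fell by 0.61 and 0.45, the latter lost without any 1 of the Rheb1/2 KO unstimulated arrays or stimulated array 3. Tgfbi, an extracellular matrix gene, fell by 0.92 in Rheb1/2 KO at means of 7.28 and 6.36. Id3, Itgae and Tgfbi exceeded the controls' 95th percentile on 0 of the 12 arrays, and after stimulation Id3 and, in WT, Itgae lay near the controls' median of 6.86 to 7.16, so the sizes of their changes rest on signals within the background range. The median of the 10 targets was -0.20 in WT and -0.04 in Rheb1/2 KO.

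**Figure D5:**
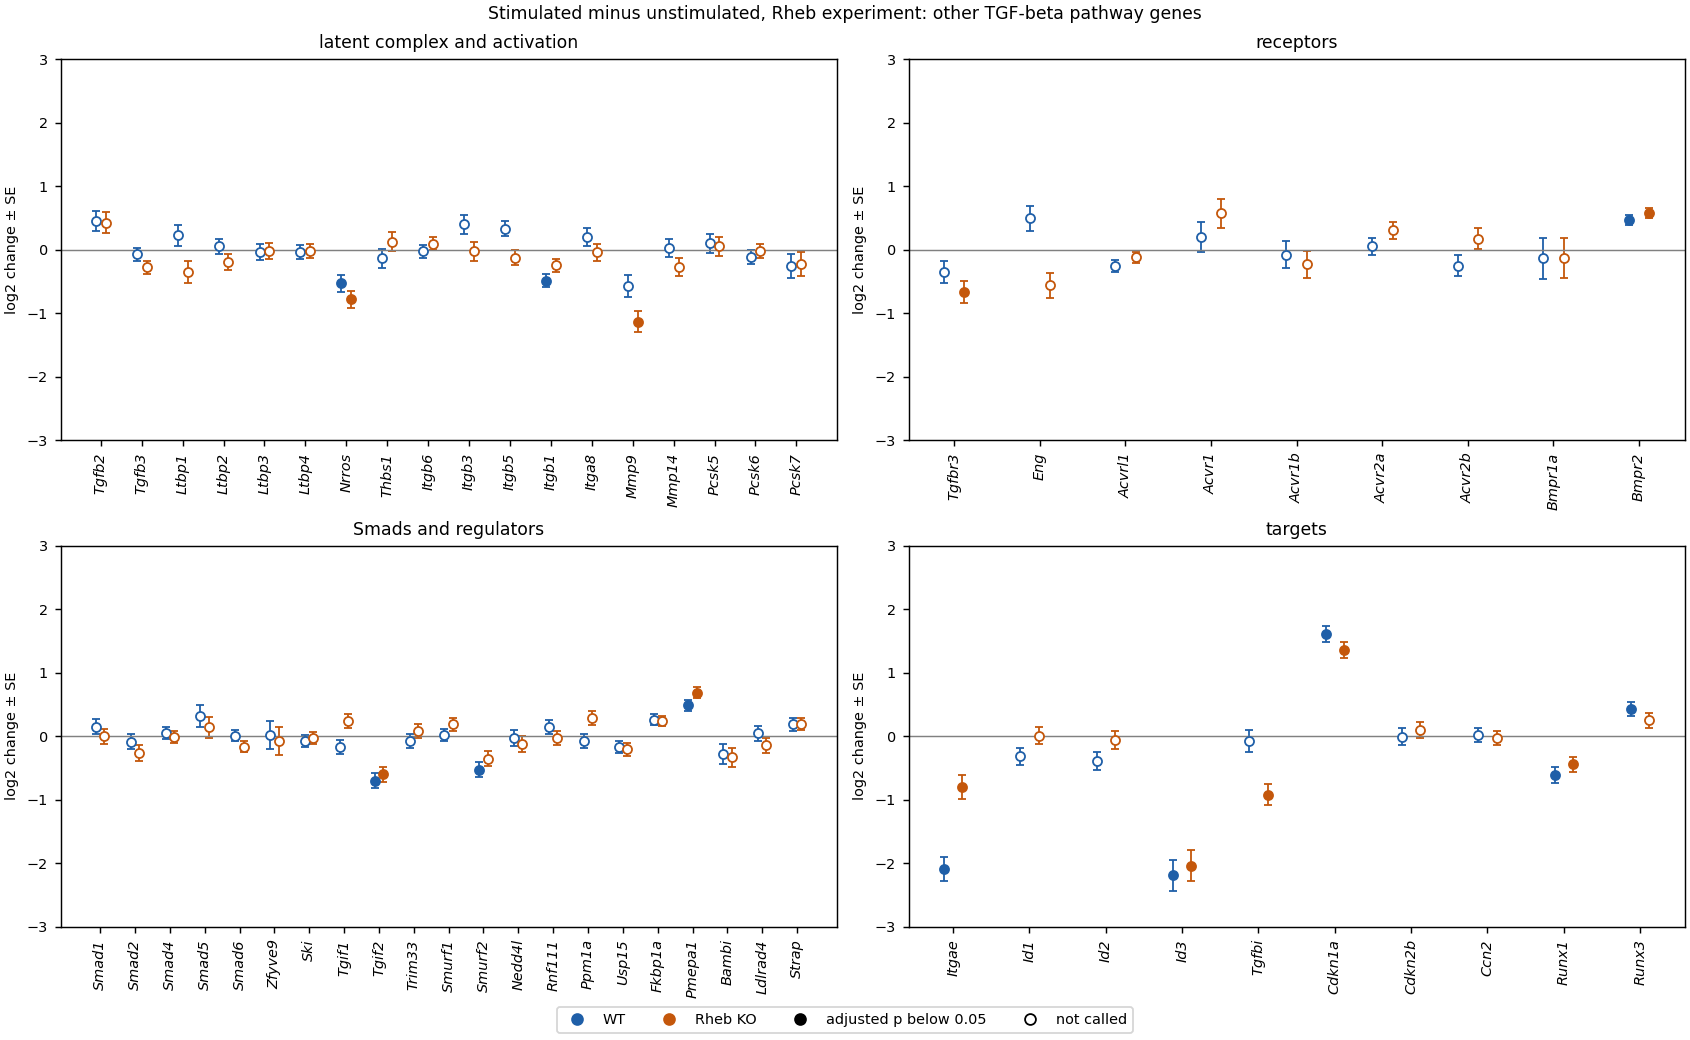
Log2 change between stimulated and unstimulated cells of the Rheb experiment with its limma standard error (vertical axes) for 58 further genes of the pathway in 4 lists, in WT and Rheb1/2 KO; filled points have an adjusted p below 0.05. Most points lie near 0, and Id3 (-2.19 and -2.04), Itgae (-2.09 and -0.80) and Cdkn1a (1.60 and 1.36) stand farthest from it.

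In the Rag experiment stimulation called 2 of the 58 genes in WT and 4 in RagAB KO, beside 1% and 1.32% of all genes. Cdkn1a rose by 3.53 ± 0.31 in WT and by 3.27 ± 0.31 in RagAB KO, from means of 7.56 and 7.52 to 11.1 and 10.8, and it was called in all fits that left out 1 array. Tgif1, a co-repressor of Smads, rose by 1.38 and 1.20. In RagAB KO, Itgb3, the beta-3 integrin chain, rose by 1.39 and Id3 fell by 2.12. Neither Itgb3 nor Id3 exceeded the controls' 95th percentile on any array of this experiment. Id3 averaged 6.86 in stimulated RagAB KO, near the controls' median of 6.11 to 6.62. The call of Tgif1 was lost without WT unstimulated array 2 or either WT stimulated array in WT, and held in 3 of 8 fits without 1 array in RagAB KO, as did that of Itgb3. The call of Id3 was lost without RagAB KO stimulated array 1.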

How the data were processed

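RNA from sorted CD4+CD25+ cells was amplified and biotin-labelled for the arrays, per the labels' protocols. The authors made the deposited values, log2 signals per probe set, by RMA with Affymetrix Expression Console 1.1, per the submitters' processing notes. RMA corrects background and equalises arrays, so shifts common to all genes are reduced. The sources used here do not say if the 2 experiments were normalized as one. Nothing was rescaled. Of 28846 probe sets, 19572 carried 1 gene, none several, and 5222 were negative controls. For 55 genes with several probe sets the one with the highest mean was kept, which left 19505 genes, all tested.

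Group means were compared with limma 3.58.1 in R 4.3.3 (lmFit and eBayes, each experiment fitted alone over its 4 groups, all 8 groups for Rag against Rheb), two-sided, with Benjamini-Hochberg adjustment over all genes, and called below 0.05. On simulated data over 19505 genes, a log2 change of 1 was recovered for 98% of changed genes in the Rheb comparison and 48% in the Rag comparison (unstimulated knockout against WT), and a change of 2 for 100% and 99%. The simulation changed 100 genes by each size and drew independent normal noise for each gene and array, without array-wide shifts. Its percentages therefore do not give the recovery in the real arrays, where such shifts are present in the Rag experiment. Within groups, arrays correlated at 0.978 to 0.993 over genes. Groups did not overlap where all arrays of one lay beyond all of the other. The 10 genes and the lists were chosen with earlier results of these data known. The rule for naming was all 10 genes, up to 4 called genes per list and comparison by size of change, and the 3 genes most correlated with each gene called at least once. The alternatives tried were a second quantile normalization, median centring, leaving out the dimmest 40% of genes, a trended robust prior, fits of only the groups compared or of all 20 arrays, the replicate number as a block, and leaving out each array. Figures were drawn with matplotlib 3.10.9.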

Additional observations from a re-analysis of the deposited data

How the results depend on the processing

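The 10 results called at the threshold in the 2 stimulation comparisons of the Rheb experiment held in 12 of 12 fits without 1 array. Fitting all 20 arrays together, which lends the wider spread of the Rag experiment to both, left 3 called genes of 10 in WT and 2 in Rheb1/2 KO, and ended the calls of Lrrc32 and Tgfbr2 in both and of Skil in the knockout. Among 840 values of the 10 genes under alternatives other than leaving out 1 array, 3 changed sign from a value beyond 1 SE of 0, and 31 others changed sign within it.

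For the unstimulated Rheb1/2 KO, 1 of the 10 genes was called, against 2 after median centring, 2 with the low-signal filter, 3 with the trended robust prior, 0 with only the groups compared and 0 with all 20 arrays, and 0 to 2 without 1 array. For the 58 wider genes the count was 1, against 2 after second quantile normalization, 2 with the filter, 3 with the trended prior, 0 with only the groups compared and 0 with all 20 arrays (0 to 1 without 1 array). With stimulation the wider count of 1 became 2 with the trended prior and 0 with all 20 arrays (0 to 1 without 1 array). For stimulation in WT and Rheb1/2 KO, leaving out 1 array gave 5 and 5 to 6 of the 10 genes, and 9 to 12 and 8 to 12 of the 58. All 20 arrays gave 4 of the 58 in WT against 11.

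In the Rag experiment, unstimulated knockout, the count among the 10 genes was 1 without the 2 arrays of lowest median, a setting chosen after seeing the data, and the wider count was 2 with the trended prior, 0 with only the groups compared, 2 with all 20 arrays and 0 to 3 without 1 array. With stimulation the knockout counts among the 10 genes were 1 with only the groups compared and 1 without the 2 lowest arrays, which is the same fit in this comparison. The wider counts were 1 with the filter, 1 with the trended prior, 3 with only the groups compared, 3 with all 20 arrays, 3 without the 2 lowest arrays and 0 to 1 without 1 array. For stimulation in WT the 10 genes gave 1 after second quantile normalization, 1 after median centring, 1 with the trended prior, 2 with only the groups compared, 4 with all 20 arrays, 1 without the 2 lowest arrays and 0 to 1 without 1 array. The 58 gave 5 after median centring, 5 with only the groups compared, 11 with all 20 arrays, 4 without the 2 lowest arrays and 1 to 4 without 1 array. In RagAB KO the 10 genes gave 2 after median centring, 2 with the filter, 2 with the trended prior, 1 with only the groups compared, 3 with all 20 arrays, 1 without the 2 lowest arrays and 0 to 3 without 1 array, and the 58 gave 1 with only the groups compared, 11 with all 20 arrays and 1 to 9 without 1 array. The difference in response gave 0 to 3 of the 58 without 1 array, and Rag against Rheb gave 0 to 4 of the 58 unstimulated and 0 to 1 of the 10 stimulated. The cause of these shifts was not tested.

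Nothing in the labels says that a replicate number links arrays of different groups, so the numbers were not used to pair samples. Over the 6 pairs of groups in each experiment, deviations of same-numbered arrays correlated from -0.2 to 0.178 in the Rheb experiment and from -0.428 to 0.231 in the Rag experiment, where 3 of the 6 were over 0.1 and 2 arrays per group give 1 value per pair of groups. With the replicate number as a block, the wider count became 0 in unstimulated Rheb1/2 KO and 1 in stimulated RagAB KO, and 2 of the 10 genes were called for stimulation in RagAB KO: Lrrc32 (1.93, adjusted p = 0.0172) and Itgb8 (1.65, adjusted p = 0.0242).

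Values that changed sign in the Rag experiment were Lrrc32 in the unstimulated knockout without WT unstimulated array 1 (range without 1 array -1.74 to 0.30), Tgfb1 there without WT unstimulated array 2 (range -0.0852 to 0.65) and without the 2 lowest arrays (-0.0588), Itgb8 on stimulation of WT without WT stimulated array 1 (range -0.11 to 1.33), and, on stimulation of RagAB KO after second quantile normalization, Itgav (-0.14) and Tgfb1 (-0.0843). Itgb8 in the stimulated Rag against Rheb comparison ranged from -0.0094 without WT stimulated array 2 to 1.43 without array 1. Of the genes called on stimulation in the Rag experiment, 47.7% rose in WT, against 28.5% after median centring, 32.8% after second quantile normalization, 24.4% without the 2 lowest arrays, 72.1% with all 20 arrays, and 15.4% to 78.7% without 1 array (WT unstimulated array 2 or 1). In RagAB KO 90.7% rose, against 56.9% after second quantile normalization, 58.3% without the 2 lowest arrays, and 71.2% to 95.1% without 1 array. A mean over several probe sets gave no value, since each of the 10 genes had 1.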

Other observations

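Over the 20 arrays, after each experiment's mean was taken from each gene, the pattern of Skil was closest to Hif1a, the oxygen-response factor (Pearson r = 0.97), Hipk2 (0.96) and Mcu (0.95), among 9413 genes searched. Lrrc32 was closest to the glycolytic gene Aldoa (0.95), then Psmd8 and Gskip (0.94 each). Itgb8 was closest to the fatty acid elongase gene Elovl6 (0.95), then Pros1 and Zdhhc21 (0.93 each). Of the genes that fell on stimulation, Smad7 was closest to Actn1 (0.94), Btg1 (0.93) and Tmem63a (0.92), Smad3 to the IL-21 receptor gene Il21r (0.94), Ptk2b and Tespa1 (0.93 each), and Tgfbr2 to Laptm5, Tsc22d3 and Abr (0.94 each). The arrays share stimulation state, genotype and array-wide shifts, and each gene named is the top of a long ranking, so these values are descriptions without a test.

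Among the 10 genes themselves the closest pairs over the same arrays were Itgb8 with Skil (r = 0.86), Itgav with Furin (0.86), Lrrc32 with Skil (0.84) and Lrrc32 with Itgb8 (0.80). Tgfb1 followed Lrrc32 (0.77), Itgav (0.70) and Furin (0.70). Tgfbr2 followed Smad3 (0.76) and Smad7 (0.72), and Smad3 followed Smad7 (0.71). In the Rag experiment the signals of Itgav (r = 0.95), Furin (0.93), Tgfb1 (0.88) and Lrrc32 (0.82) also followed the array median. Skil (0.62), Smad3 (0.53) and Itgb8 (0.51) did so less closely. For Tgfbr2, Tgfbr1 and Smad7 the values were 0.01, -0.23 and -0.42. In the Rheb experiment the values were 0.46 for Itgav, 0.42 for Furin, -0.66 for Tgfb1 and -0.14 for Lrrc32. They were -0.22 for Skil, -0.29 for Smad3 and 0.07 for Itgb8, and -0.13, -0.44 and -0.39 for Tgfbr2, Tgfbr1 and Smad7. Itgav and Furin were called in no comparison, and the part of array-wide shifts in these pairs was not tested.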
